A study of Sus scrofa with 3 samples.

Results

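The miR-181 family comprises miR-181a, miR-181b, miR-181c and miR-181d, 4 of the 677 hairpin names to which reads were assigned in small RNA libraries of pig liver. Members were taken by name: every hairpin called miR-181a, b, c or d, in pig or another mammal, whatever its copy number. This gave 14 entries of 1346 in the library of embryonic day 90 (E90), 17 of 1224 at postnatal day 30 (P30d) and 13 of 886 at postnatal year 7 (P7y), where an entry is 1 arm of 1 hairpin. The livers came from male Jinhua pigs, a Chinese breed, untreated and with no genetic change named in the labels. The labels mention 3 pigs at each stage and 1 library per stage, with no word on pooling. There are thus no replicates and no test, and every comparison sets 1 library against another.

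A miRNA is cut from a hairpin transcript, and the strand from either side of the hairpin (the 5p or the 3p arm) can be loaded into an Argonaute protein, which then represses mRNAs that pair with the seed, bases 2 to 8 of the miRNA. The miR-181 family is best known from lymphocytes: miR-181a tunes the response of T cells to their antigen receptor, and the family takes part in the maturation of T, B and natural killer cells. Outside blood, miR-181b restrains inflammatory signalling in endothelium, and miR-181 members have been described in hepatic progenitor-like liver cancer cells. Mammals carry the family as 3 clusters of neighbouring hairpins, each pairing an a-type with a b-type member, with miR-181c and miR-181d as the a-type and b-type of the remaining cluster.

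The annotated pig 5p sequences, read from the deposited tables, are shown because the 4 members share a seed, in capitals, and differ only beyond it.
miR-181a-5p: aACATTCAacgctgtcggtgagtt
miR-181b-5p: aACATTCAttgctgtcggtgggtt
miR-181c-5p: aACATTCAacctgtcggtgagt
miR-181d-5p: aACATTCAttgttgtcggtgggtt

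Counting from 1 at the 5′ end, miR-181b-5p differs from miR-181a-5p by A9T, C10T and A21G, and miR-181d-5p from miR-181b-5p by C12T alone. miR-181c-5p is annotated with 22 bases against 24 in the others. Of 988 mature miRNAs with a read, none outside the family (0 other names) had a main read with this seed.

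The 3p arms are shown because they tell apart hairpins whose 5p arms are identical or alike. The sequences below are the main reads, which were the same in all 3 libraries, with bases 2 to 8 in capitals.
miR-181a-1-3p: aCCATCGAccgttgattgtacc
miR-181a-2-3p: aCCACCGAccgttgactgtacc
miR-181c-3p: aCCATCGAccgttgagtggacc

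The read of miR-181a-2-3p differs from that of miR-181a-1-3p by T5C and T16C, the first of which lies in the seed. The read of miR-181c-3p differs from miR-181a-1-3p by T16G and T19G, outside the seed. That read began 1 base inside the human miR-181c-3p annotation used in the tables, and with this start miR-181c-3p and miR-181a-1-3p had the same seed.

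The family lies at 3 places in the pig genome (Sscrofa10.2 coordinates of the tables). miR-181b-1 (chromosome 10, 26426852 to 26426961, minus strand) and miR-181a-1 (26427015 to 26427122) are 53 bases apart. miR-181a-2 (chromosome 1, 299322123 to 299322232, plus strand) and miR-181b-2 (299324011 to 299324099) are 1778 bases apart. miR-181d (chromosome 2, 65553461 to 65553588, minus strand) and miR-181c (65553658 to 65553760) are 69 bases apart. In the RefSeq annotation of Sscrofa11.1, miR-181a-2 and miR-181b-2 fall within the span of NR6A1, an orphan nuclear receptor gene, and miR-181a-1 and miR-181b-1 within LOC110255652. miR-181c and miR-181d fall within no other gene, and MIR23A, MIR27A and MIR24-1 are their nearest miRNA neighbours. Whether the hairpins are exonic or intronic was not analysed.

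The libraries held 9243601 (E90), 3622993 (P30d) and 9920207 (P7y) reads of named miRNAs, and levels are given as CPM, reads per 1000000 of these reads. A count of 0 allowed up to 0.325 CPM in the E90 library, 0.828 in P30d and 0.302 in P7y, taken as 3 reads. The 95% intervals and the limits reflect counting error alone, and PCR copies are not separate molecules. A miRNA was called higher or lower between 2 libraries where its log2 ratio of CPM, later over earlier stage, was 1 or more in size with an interval that excluded 0. Such calls were made for the 324 miRNAs that averaged at least 10 CPM over the 3 libraries. Differences between small RNA libraries cannot tell a change in the cells that make a miRNA from a change in their number.

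The family was a small part of the liver miRNA pool, and it stood highest in the weaning-age library. All arms together made up 0.175% of the E90 library (0.172 to 0.177 by Clopper-Pearson), 0.455% of the P30d library (0.448 to 0.462) and 0.127% of the P7y library (0.125 to 0.129). Almost all of it was 5p, with 1649 CPM at E90, then 4429 CPM at P30d and 1168 CPM at P7y, against 96.7, 118.7 and 104.4 CPM for the 3p arms. The 5p sum, which is the total of reads of the arms whose annotated sequences share the seed, was 2.69-fold higher at P30d than at E90 (2.63 to 2.75). The 3p sum was 1.23-fold higher in the same comparison (1.09 to 1.38).

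miR-181a-5p, the T cell regulator of the family, was its main member in every library. It had 11604 reads at E90 (1255 CPM), 13505 at P30d (3728 CPM) and 9991 at P7y (1007 CPM), which were 71.9%, 82.0% and 79.2% of all family reads. It ranked 66th among all miRNAs at E90, 36th at P30d and 48th at P7y. miR-181b-5p came next, with 2965 reads at E90 (321 CPM), 1790.5 at P30d (494 CPM) and 1217 at P7y (123 CPM). P30d was thus the highest library for both, and for miR-181b-5p P7y was clearly the lowest.

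miR-181c-5p and miR-181d-5p, from the chromosome 2 cluster, were far rarer and did not move alike. miR-181c-5p had 172 reads at E90 (18.6 CPM), 622 at P30d (172 CPM) and 189 at P7y (19.1 CPM). P30d stood far above the others, and E90 and P7y were level under CPM, though not under the other scalings given with the P7y over E90 ratios. miR-181d-5p had 503 reads at E90 (54.4 CPM), 128.5 at P30d (35.5 CPM) and 187.7 at P7y (18.9 CPM), so its highest library was E90. P7y was its lowest under CPM, with a log2 ratio of P7y over P30d of -0.91. P7y stayed lowest, with a ratio of -0.59, with totals that leave out the 5 most abundant miRNAs. The ratio turned to 0.16 with TMM and 0.14 with median-of-ratios scaling.

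Of the 3p arms, miR-181a-3p had 461 reads at E90 (49.9 CPM), 355 at P30d (98.0 CPM) and 847 at P7y (85.4 CPM). miR-181c-3p had 421 reads at E90 (45.5 CPM), 69 at P30d (19.0 CPM) and 155 at P7y (15.6 CPM), so its highest library was E90, where its own 5p arm was at one of its low points. The remaining arms were near the limit of detection: miR-181b-3p had 12, 5 and 34 reads in the order E90, P30d and P7y, and miR-181d-3p had 1 read, at P30d. These 2 arms did not reach the filter, and the other 6 of 8 exceeded it in each library.

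**Figure D1:**
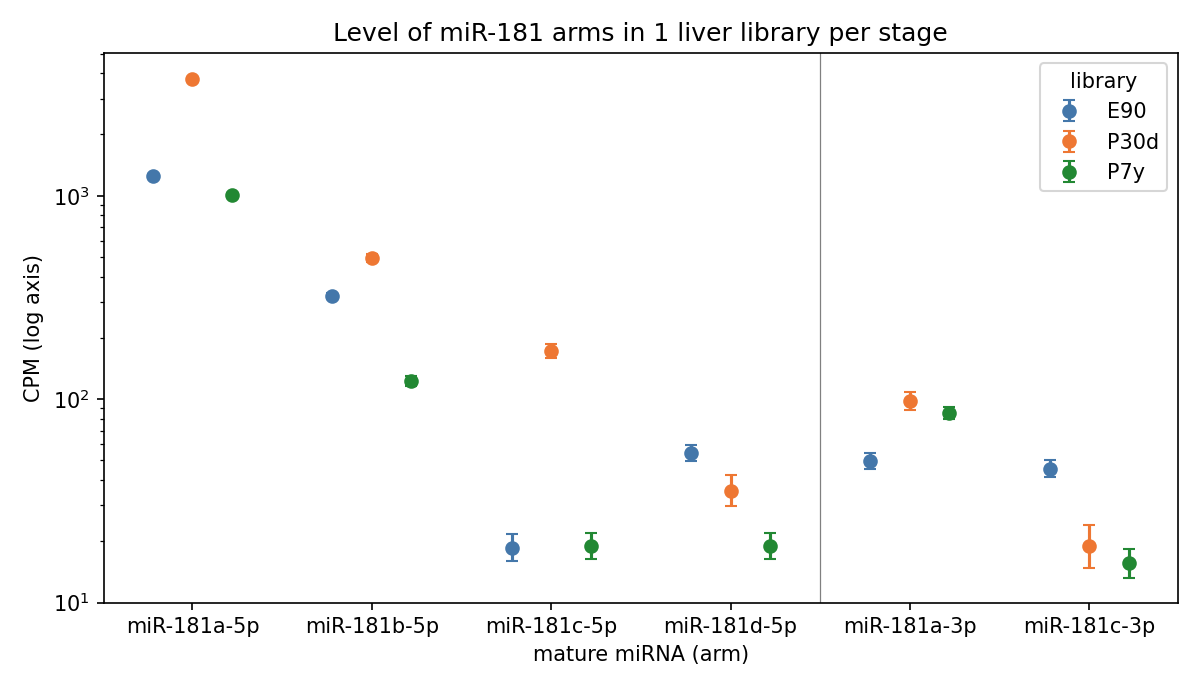
CPM on a log axis of the 6 miR-181 arms past the filter in the libraries of E90, P30d and P7y, 1 point per library with an exact Poisson 95% interval; 5p arms stand left of the line and 3p arms right of it. miR-181c-5p reaches 172 CPM at P30d against 18.6 CPM at E90 and 19.1 CPM at P7y, whereas miR-181d-5p has 54.4, 35.5 and 18.9 CPM in the order of stages, the last step of which turns direction with TMM.

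Among the 6 arms past the filter, the order of levels within each library was clear at the top and, at E90 and P7y, not below it. miR-181a-5p and then miR-181b-5p led in all 3 libraries with intervals well apart. At E90 miR-181d-5p, miR-181a-3p and miR-181c-3p followed in that order with each interval overlapping its neighbour, and miR-181c-5p was the lowest of the 6. At P30d the order was miR-181c-5p, miR-181a-3p, miR-181d-5p and miR-181c-3p, with no overlap between intervals. At P7y miR-181a-3p followed these leaders, and miR-181c-5p, miR-181d-5p and miR-181c-3p could not be ordered because their intervals overlapped.

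The step across birth was described by P30d over E90. miR-181c-5p had 172 CPM at P30d and 18.6 CPM at E90, a log2 ratio of 3.21 (2.96 to 3.46) or 9.23-fold. miR-181a-5p had 3728 and 1255 CPM, a log2 ratio of 1.57 (1.53 to 1.61) or 2.97-fold. In the other direction miR-181c-3p had 19.0 CPM at P30d and 45.5 CPM at E90, a log2 ratio of -1.26 (-1.65 to -0.89). The remaining arms were not called: miR-181b-5p stood at 0.62 (0.54 to 0.71), miR-181a-3p at 0.97 (0.77 to 1.18) and miR-181d-5p at -0.61 (-0.90 to -0.33).

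Thus 2 of 6 arms were called higher at P30d and 1 lower, where 33.3% of all 324 miRNAs were called higher and 35.5% lower (68.8% in either direction), so the share called was not above that of the other miRNAs. The median log2 ratio was 0.80 over the 6 arms and -0.11 over all miRNAs. The 3 calls were the same with TMM, with median-of-ratios scaling and with totals that leave out the 5 most abundant miRNAs, and TMM moved the median of all miRNAs by -0.07.

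Between P30d and P7y the calls depended on scaling, and the log2 ratio of all 324 miRNAs had a median of -1.36. TMM scaling moved that median by 1.07. Under CPM 0 of 6 arms were called higher at P7y and 3 lower, against 13.6% and 55.9% of all miRNAs (69.4% in either direction); the median over the 6 arms was -1.40. miR-181c-5p stood at -3.17 (-3.41 to -2.93), miR-181b-5p at -2.01 (-2.12 to -1.90) and miR-181a-5p at -1.89 (-1.93 to -1.85). Set against the median of all miRNAs these were -1.82, -0.65 and -0.53. With TMM or median-of-ratios scaling miR-181c-5p alone was called lower, at -2.10 and -2.13. With totals that leave out the 5 most abundant miRNAs the 3 lower calls stayed. Higher calls were 19.6% of all calls under CPM and 45.2% under TMM. The uncalled arms lay above the median of all miRNAs, miR-181a-3p by 1.16, miR-181c-3p by 1.07 and miR-181d-5p by 0.45.

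Mature against fetal liver was compared by P7y over E90. miR-181c-5p was level under CPM, with 19.1 CPM at P7y and 18.6 CPM at E90, a log2 ratio of 0.03 (-0.27 to 0.34). Under CPM 0 of 6 arms were called higher and 3 lower, against 12.0% and 50.6% of all miRNAs (62.7% in either direction), and the median was -0.85 over the arms and -1.06 over all. The lower arms were miR-181c-3p at -1.54 (-1.82 to -1.27), miR-181d-5p at -1.52 (-1.77 to -1.28) and miR-181b-5p at -1.39 (-1.48 to -1.29). With the median of all miRNAs subtracted, the a-type 5p arms were positive and the b-type negative: miR-181c-5p was at 1.10 and miR-181a-5p at 0.75, while miR-181d-5p was at -0.46 and miR-181b-5p at -0.32. TMM moved the median of all miRNAs by 1.01 and the share of higher among all calls to 45.5%, against 19.2% under CPM. It left none of the 3 called lower and called miR-181a-3p (1.78) and miR-181c-5p (1.04) higher. Median-of-ratios scaling gave the same calls. With totals that leave out the 5 most abundant miRNAs the 3 lower calls stayed and miR-181a-3p (1.10) was called higher. There miR-181c-5p stood at 0.36 (0.05 to 0.66), not called. miR-181a-5p changed sign with scaling, at -0.32 under CPM and 0.69 under TMM.

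**Figure D2:**
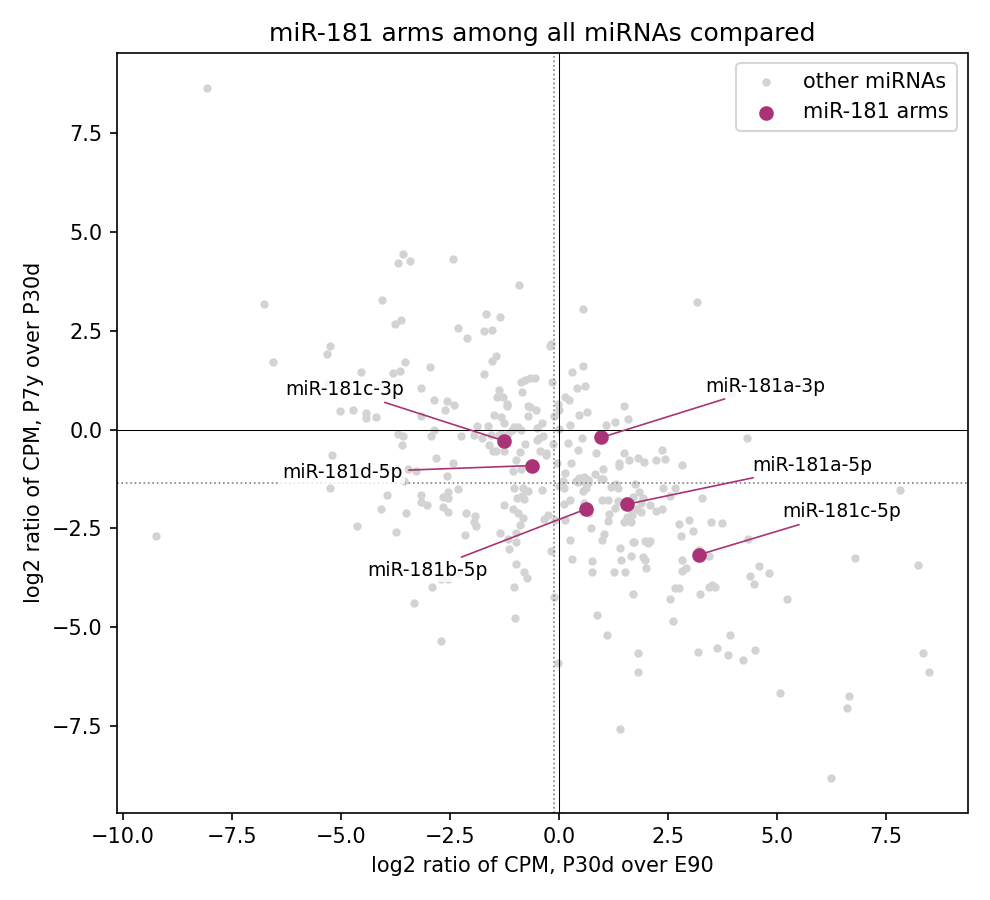
Log2 ratio of CPM, P30d over E90 (horizontal axis) and P7y over P30d (vertical axis), for 324 miRNAs in grey, of which the 6 miR-181 arms are marked; dotted lines are the medians of all miRNAs, -0.11 and -1.36. The axes share the P30d library, so the downward slope of the cloud is partly built in; miR-181c-5p, at 3.21 and -3.17, lies farthest from the centre among the marked arms.

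Ratios within the family do not depend on scaling. The chromosome 2 cluster held a small share of family 5p reads, with 4.43% in the E90 library (4.11 to 4.77), 4.68% in P30d (4.36 to 5.02) and 3.25% in P7y (2.94 to 3.59). The log2 odds ratio of miR-181c and miR-181d over miR-181a and miR-181b was 0.08 for P30d over E90 (-0.07 to 0.24), -0.54 for P7y over P30d (-0.73 to -0.36) and -0.46 for P7y over E90 (-0.65 to -0.27). The 5p share was thus lower at P7y than in either earlier library, and P30d and E90 differed by no more than counting error. With 3p reads included, a count added after seeing the data, the cluster held 6.79% of family reads at E90 (6.41 to 7.19), against 4.98% at P30d (4.66 to 5.33) and 4.22% in P7y liver (3.87 to 4.58). The log2 odds ratio for P30d over E90 was then -0.47 (-0.61 to -0.34), so the cluster's share of all family reads was lower at P30d than at E90.

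Within the cluster the 5p arms parted. miR-181d-5p was 74.5% of the 5p reads of miR-181c and miR-181d at E90 (71.1 to 77.8), but 17.1% at P30d (14.5 to 20.1), and 49.8% in the P7y library (44.7 to 55.0). The log2 odds ratio of miR-181d over miR-181c was -3.81 for P30d over E90 (-4.20 to -3.44) and 2.26 for P7y over P30d (1.85 to 2.68). miR-181d-5p thus led at E90 and miR-181c-5p at P30d. With both arms counted, the miR-181c hairpin led in every library, with 593 reads to 503 of miR-181d at E90, 691 to 130 at P30d and 344 to 188 at P7y. Pooled over the other clusters, whose 5p reads cannot be told apart, the b-type 5p arm also had a smaller share at P30d than at E90, by a smaller odds ratio. Its share within each of those clusters could not be measured. miR-181b-5p was 20.4% of the 5p reads of miR-181a and miR-181b at E90 (19.7 to 21.0), against 11.7% at P30d (11.2 to 12.2) and 10.9% in P7y liver (10.3 to 11.4). Its log2 odds ratio over miR-181a was -0.95 for P30d over E90 (-1.04 to -0.85) and -0.12 for P7y over P30d (-0.24 to -0.01).

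The 5p arms of the chromosome 10 and chromosome 1 copies have the same sequence, and the deposited tables split their reads nearly evenly between copies, so only the 3p arms tell those clusters apart. miR-181a-1-3p, from chromosome 10, had 281 reads at E90 (30.4 CPM), 95 at P30d (26.2 CPM) and 513 at P7y (51.7 CPM). miR-181a-2-3p, from chromosome 1, had 179 reads at E90 (19.4 CPM), 259 at P30d (71.5 CPM) and 331 at P7y (33.4 CPM). Both were higher at P7y than at E90, with log2 ratios of 0.77 for miR-181a-1-3p and 0.78 for miR-181a-2-3p. Under CPM the P7y over P30d ratio of miR-181a-2-3p was -1.10 (-1.34 to -0.86), and with totals that leave out the 5 most abundant miRNAs -0.78. P30d was its highest library in both settings. With TMM the ratio was -0.02 (-0.26 to 0.22), so P30d and P7y were level. The P7y over P30d ratio of miR-181a-1-3p was 0.98 (0.66 to 1.31) under CPM and 2.05 with TMM.

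The chromosome 10 copy gave 61.1% of these 3p reads in the E90 library (56.5 to 65.6), 26.8% in P30d (22.3 to 31.8) and 60.8% in P7y (57.4 to 64.1). Its log2 odds ratio over the chromosome 1 copy was -2.09 for P30d over E90 (-2.55 to -1.65) and -0.02 for P7y over E90 (-0.37 to 0.33). For P30d over E90, miR-181a-2-3p had a log2 ratio of 1.88 (1.60 to 2.17), beside 1.57 for miR-181a-5p, and miR-181a-1-3p one of -0.21 (-0.56 to 0.13), within counting error. The main read made up 36.3% of miR-181a-2-3p reads at P30d, against 65.9% at E90. On main reads the P30d over E90 log2 ratio of miR-181a-3p, both copies together, was 0.23 (-0.04 to 0.51), against 0.97 on all reads. When only the main read of each arm was counted, an alternative chosen after seeing the data, the share of the chromosome 10 copy at P30d was 41.3%, still the lowest of the 3 libraries. For miR-181b the 3p reads were too few to compare, with 8 of 12 from chromosome 10 at E90, 1 of 5 at P30d and 20 of 34 at P7y.

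**Figure D3:**
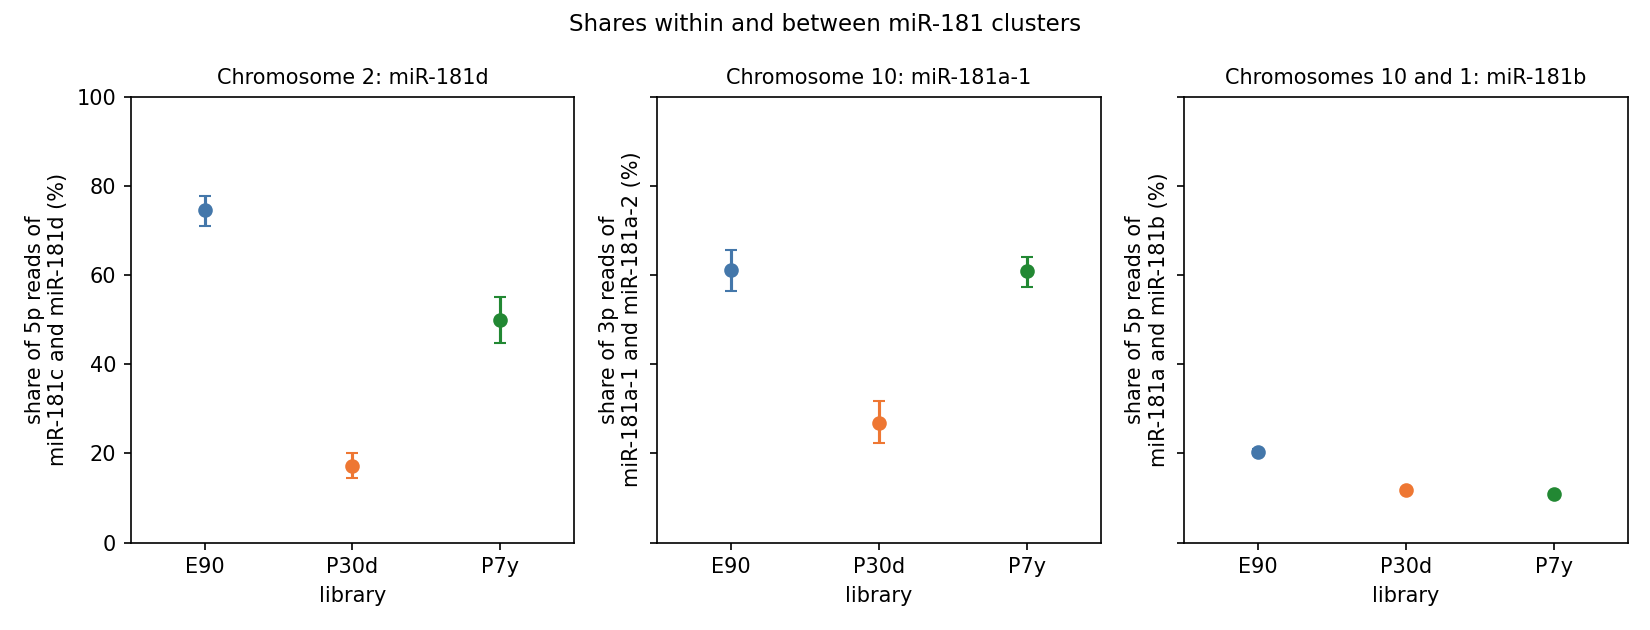
Shares of reads in percent, with exact Clopper-Pearson 95% intervals, in the libraries of E90, P30d and P7y: miR-181d among 5p reads of miR-181c and miR-181d (left), miR-181a-1 among 3p reads of the 2 miR-181a copies (middle) and miR-181b among 5p reads of miR-181a and miR-181b (right). The left and middle shares dip at P30d, to 17.1% and 26.8%, and the right share is 20.4% at E90 against 11.7% and 10.9% later.

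The hairpin of miR-181c is printed because both of its arms were read in quantity and their balance differed between the libraries. It lies at chr2:65553658-65553760 on the minus strand (Sscrofa10.2, 103 bases), with the annotated 5p arm and the 3p main read in capitals.
miR-181c hairpin: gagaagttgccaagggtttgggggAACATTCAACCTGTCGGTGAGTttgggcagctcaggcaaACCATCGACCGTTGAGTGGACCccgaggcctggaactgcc

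At E90 the 3p arm of miR-181c led, with 421 reads of 3p to 172 of 5p, and the 5p share was 29.0% (25.4 to 32.8). At P30d the 5p arm led 9.01-fold, with 622 reads to 69 and a share of 90.0% (87.5 to 92.1). At P7y there were 189 reads of 5p and 155 of 3p, a share of 54.9% whose interval (49.5 to 60.3) included 50%. Of those 3p reads 45.2% carried a mismatch, and without mismatched reads the P7y share was 66.3% (60.1 to 72.1), with 167 reads of 5p and 85 of 3p. The library with the lowest 5p share was thus E90 and that with the highest P30d.

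The log2 odds ratio of 5p over 3p reads was 4.45 for P30d over E90 (4.01 to 4.92), -2.88 for P7y over P30d (-3.38 to -2.40) and 1.57 for P7y over E90 (1.16 to 1.99). Changes of arm balance were common: among 211 hairpins with at least 50 reads in both libraries, 19.9% were called higher and 33.6% lower for P30d over E90, 53.6% in all. A change in which arm led was rarer, at 8.53% of these hairpins, and miR-181c was among them. By size of its odds ratio it was 17th of 211. For P7y over P30d 31.7% of 199 hairpins were called higher and 28.1% lower, 59.8% in all, and the leading arm differed in 5.03%, miR-181c not included. For P7y over E90 17.2% of 221 were called higher and 24.9% lower, 42.1% in all, and the leading arm differed in 6.33%, miR-181c included. The leading arm was taken from the counts without regard to intervals, and for miR-181c at P7y the interval of the 5p share on all reads included 50%.

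The other members kept the 5p arm in the lead in all 3 libraries. For miR-181a the 3p share in the E90 library was 3.82% (3.49 to 4.18), in P30d 2.56% (2.30 to 2.84) and in P7y 7.82% (7.32 to 8.34). For miR-181b the E90 library had 0.403%, P30d 0.278% and P7y 2.72% (1.89 to 3.78). The 5p over 3p balance of both was lower at P7y than at E90, with log2 odds ratios of -1.09 (-1.26 to -0.92) for miR-181a and -2.75 (-3.88 to -1.80) for miR-181b. For miR-181d no 3p read was found among 503 reads at E90, which allows a share up to 0.731%, or among 188 at P7y, which allows 1.94%, and 1 was found among 130 at P30d. In all 3 libraries the 3p share of miR-181c was above that of each other member of the family.

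**Figure D4:**
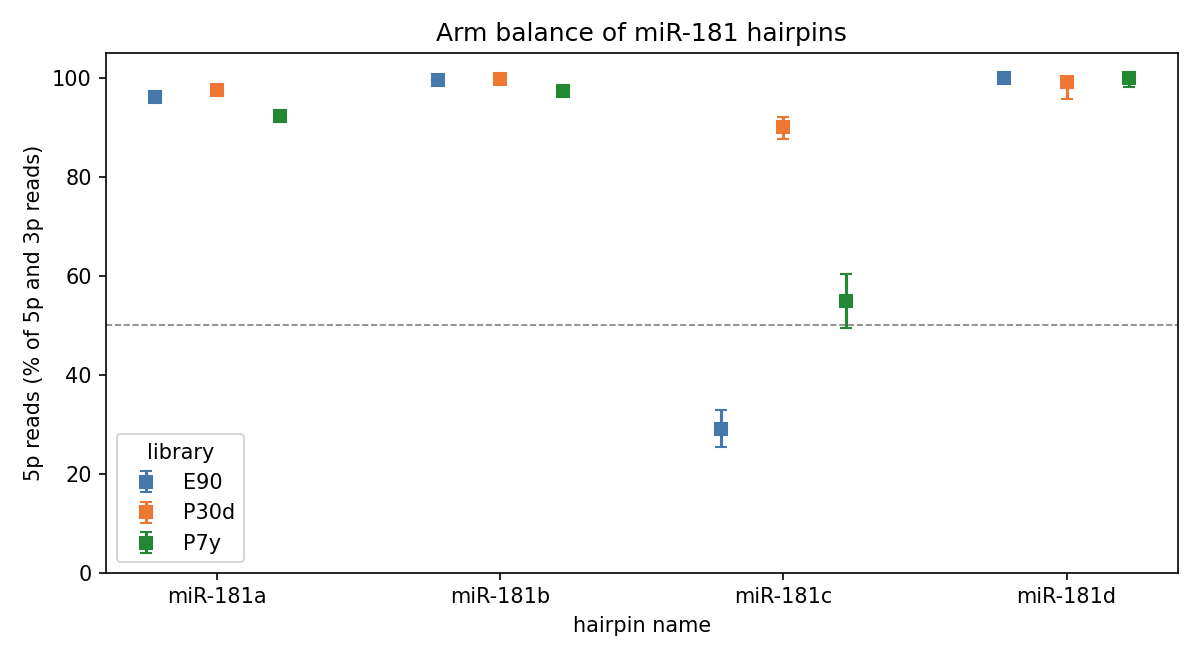
Share of 5p reads among 5p and 3p reads in percent, with exact Clopper-Pearson 95% intervals, for each miR-181 hairpin name in the libraries of E90, P30d and P7y; the dashed line marks 50%. miR-181c goes through 29.0%, 90.0% and 54.9%, while miR-181a, miR-181b and miR-181d stay at 92.2% or more.

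The ends of the main reads also differed by library. The main miR-181a-5p read had 22 bases at E90, 23 at P30d and again 22 at P7y; that read alone made up 48.8%, 76.2% and 49.9% of the reads of the arm. The main miR-181c-5p read had 21, 23 and 22 bases in the same order, and the main miR-181d-5p read 23, 24 and 23. For miR-181b-5p they were 23, 23 and 21. All of these main reads began at the annotated 5′ base, so among them only the 3′ end differed. In the order of stages the main read was 30.9%, 32.7% and 18.3% of miR-181b-5p reads. It was 32.6%, 61.3% and 42.9% for miR-181c-5p, and 48.7%, 40.5% and 32.5% for miR-181d-5p. The ends of the other reads were not measured.

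At P30d the main read was longer than at E90 in 3 of the 4 5p arms, where 14.7% of 204 arms with at least 100 reads in each library had a longer one and 15.7% a shorter one. At P7y it was shorter than at P30d in all 4, where 18.6% of the 204 had a shorter one and 17.2% a longer one. miR-181a-3p, the 3p arm of the family with enough reads for this comparison, kept a main read of 22 bases in all 3 libraries. Beyond the annotated pig hairpins, 49 reads at P30d against 5 at E90 and 3 at P7y were assigned to other miR-181a entries, and they are part of the sums above.

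The share of reads with a mismatch to the hairpin varied between arms. Over all miRNAs it came to 18.6% in the E90 library, 13.9% in P30d and 21.7% in P7y. For miR-181a-5p it was lower, at 11.2%, 7.16% and 14.6%, and for miR-181b-5p higher, at 27.9%, 23.1% and 34.6%. For miR-181c-3p it was higher in each later stage, with 19.5%, 30.4% and 45.2% in the 3 libraries. Without reads that carry a mismatch, the log2 of 5p over 3p of miR-181c at P7y was 0.97 in place of 0.29.

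Leukocytes are the best known source of miR-181, and miRNAs that mark them are given for that reason. All 6 leukocyte miRNAs (miR-142-3p, miR-142-5p, miR-146a-5p, miR-150-5p, miR-155-5p and miR-223-3p) were read in every library, and together they held 1019 CPM at E90, 4596 CPM at P30d and 1113 CPM at P7y. At P30d 3 of the 6 were called higher than at E90 and 1 lower, where 33.3% and 35.5% of all miRNAs were, so the number called was near that of miRNAs at large. miR-142-5p, a miRNA of blood cells, had 374 CPM at E90, 2956 CPM at P30d and 609.1 CPM in P7y liver, and miR-146a-5p, which damps inflammatory signalling, had 56.8, 1151 and 169 CPM. The myeloid miR-223-3p went the other way, with 296 CPM at E90, 50.2 CPM at P30d and 83.1 CPM in P7y liver, and the other arm of the miR-142 hairpin, miR-142-3p, had 195, 189.9 and 104.7 CPM. The part of leukocytes in the miR-181 levels was not tested.

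Under CPM the endothelial sum was highest at E90, the mesenchymal one at P7y and the hepatocyte, muscle and neural ones at P30d. With TMM or median-of-ratios scaling, tried after seeing the data, P7y was the highest for the endothelial, hepatocyte, muscle and mesenchymal sums and P30d for the leukocyte and neural ones. Endothelial miRNAs, with 4 of 4 read, summed to 17330 CPM at E90, 14227 CPM at P30d and 13995 CPM in P7y liver. The members of that list differed in direction. In the order of stages miR-126-3p had 11832, 7426 and 10951 CPM, and miR-126-5p had 1465, 4458 and 2616 CPM. For miR-221-3p the levels were 3567, 1489 and 394 CPM, and for miR-222-3p 466, 855 and 33.1 CPM. Mesenchymal miRNAs, with 4 of 4 read, summed to 55757, 59484 and 110028 CPM. Within the mesenchymal list miR-199a-5p, a miRNA of fibroblasts and stellate cells, had 3349 CPM at E90, 40212 CPM at P30d and 2539 CPM in P7y liver, and miR-214-3p had 95.9, 498 and 178 CPM. The smooth muscle miRNAs of that list were lowest at P30d, miR-143-3p with 51123, 17730 and 102623 CPM and miR-145-5p with 1189, 1043 and 4688 CPM. Hepatocyte miRNAs, with 4 of 4, summed to 313427, 364980 and 288391 CPM, and the members differed in direction. The liver miRNA miR-122-5p had 128017, 213802 and 37870 CPM in the order of stages, miR-192-5p had 109466, 109310 and 154836 CPM, and miR-148a-3p had 75920, 41821 and 95666 CPM. The least abundant, miR-194-5p, had 23.7, 46.4 and 19.4 CPM, a log2 ratio of 0.97 for P30d over E90. A similarly named entry outside the list, miR-194a-5p, went the other way in that comparison, at -0.94. The muscle list, with 3 of 3 read, summed to 15.1, 42.0 and 30.3 CPM, of which miR-133a-3p held 14.7, 41.2 and 27.1 CPM. In that list miR-206-3p was read at E90 only, and miR-1-3p, which did not reach the filter, had 0.325, 0.828 and 3.12 CPM. The neural list, with 2 of 3 read and miR-124-3p at 0, summed to 98.3, 161.7 and 27.4 CPM. Of the neural sum miR-128-3p held 93.1, 157 and 12.9 CPM, and miR-9-5p, which did not reach the filter, 5.19, 4.69 and 14.5 CPM. The part of these cell types in the miR-181 levels was not tested.

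Among 177 other miRNAs that averaged at least 100 CPM, the 5 whose pair of log2 ratios (P30d over E90, P7y over P30d) was nearest to that of miR-181a-5p were miR-365-3p, miR-5105-3p, miR-2904-3p, let-7e-5p and miR-98-5p, at Euclidean distances of 0.08 to 0.38 log2 units over 3 libraries. miR-365-3p, the nearest, had 202 CPM at E90, 583 CPM at P30d and 166 CPM at P7y. let-7e-5p and miR-98-5p belong to the let-7 seed family, whose members accumulate as tissues differentiate.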

How the data were processed

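Small RNA of 14 to 40 nt was sequenced from liver at 3 stages, with 1 library per stage, per the labels' protocols. The deposited reads per hairpin arm are expected counts, since they hold fractions where a read maps to several hairpins; the deposited copies of each main read are counts. Per the file headers, reads were mapped to miRBase hairpins of pig and other mammals; Sscrofa10.2 is the build in the submitters' processing notes, and for the aligner and the miRBase release the sources used here give nothing.

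Expected counts were summed per hairpin name and arm, rounded for intervals, and scaled to CPM over reads of named hairpins; predicted hairpins were left out. For the comparison across all miRNAs, 17 names were merged into others that had the same main read (18 nt or more, over 50% of reads). Ratios have exact conditional binomial intervals and arm balances exact conditional odds ratios (0.5 added for size). A 0 was set to 3 reads. The opossum miR-181c hairpin, whose read is the miR-181a sequence, was counted as miR-181c by name (3 reads at E90, 1 at P30d). The members and lists were chosen with earlier results of these data known. Named miRNAs were all members, the marker lists and the 5 nearest in pattern. Alternatives were TMM (edgeR 4.0.16), median-of-ratios (DESeq2 1.42.0), totals without the 5 most abundant miRNAs, filters, and subsets of reads. Scripts were tested on simulated data. Python 3.11.15, NumPy 2.4.6, SciPy 1.17.1, pandas 2.3.3, matplotlib 3.10.9 and R 4.3.3 were used. With 1 library per stage there is no spread and hence no p-value. RefSeq names are from Sscrofa11.1.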

Additional observations from a re-analysis of the deposited data

How the results depend on the processing

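The ratio of the family 5p sum, P30d over E90, was called higher under every alternative run. For P7y over P30d it was no longer called with TMM (-0.85) or median-of-ratios scaling (-0.88), and for P7y over E90, at -0.50 under CPM, it turned to 0.51 and 0.55. Under these 2 scalings, in the same order, miR-181a-5p over E90 turned to 0.69 and 0.73 (and to 0.0053 without the 5 most abundant miRNAs), and over P30d miR-181a-3p turned to 0.88 and 0.85, miR-181c-3p to 0.79 and 0.76 and miR-181d-5p to 0.16 and 0.14. Without the 5 most abundant miRNAs miR-181a-3p (0.12) and miR-181c-3p (0.035) turned too, as they did on main reads only (0.37 and 0.030), and miR-181a-3p on reads without a mismatch (0.087). Of 126 ratios of single arms under alternatives, 95 kept direction and call. Scaling changes every ratio of a pair by 1 factor; for the other settings the cause was not tested.

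The number of miRNAs called, 223, 225 and 203 in the order P30d over E90, P7y over P30d and P7y over E90, was 396, 410 and 432 with no filter, 117, 123 and 103 at 100 CPM, and 138, 146 and 133 with pig hairpins only, where fewer miRNAs were compared. Higher calls were 19.6% of all calls for P7y over P30d under CPM and 45.2% under TMM, and 19.2% and 45.5% for P7y over E90.

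The family share of reads at E90, P30d and P7y was 0.183%, 0.480% and 0.135% without mismatches, 0.147%, 0.563% and 0.113% on main reads and 0.181%, 0.476% and 0.130% with pig hairpins only; with predicted hairpins in the total it was 0.172% at E90 and 0.436% at P30d. On main reads miR-181c and miR-181d held 3.82% of family 5p reads at P30d and 2.65% at P7y. The log2 of 5p over 3p of miR-181c, -1.29, 3.16 and 0.29, was -2.17 at E90 and 3.75 at P30d on main reads, and 3.60 at P30d and 0.97 at P7y without mismatches; its sign held in each library in all alternatives run. Counting the opossum hairpin as miR-181a, an alternative chosen after seeing the data, changed no call. No paired analysis was possible because each stage has 1 library. Depth limits the arms under about 200 reads, whose intervals are wide.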
